A study of Mus musculus with 6 samples.

Results

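Large arterial endothelial cells of the mouse brain were described in 6 single-cell libraries, and they made up 3523 of 22886 barrier endothelial cells. The members were chosen from measured values: an endothelial cell was a member where it held at least 3 UMIs (unique molecular identifiers, 1 per captured transcript) summed over Gkn3, Cytl1, Fbln5 and Mgp. Endothelial cells were those with at least 6 UMIs over Cldn5, Flt1, Ly6c1 and Itm2a, none of Cx3cr1, Aif1 or Csf1r, and at most 1 of Plvap, out of 44112 cells past the gene and mitochondrial limits and 49059 deposited barcodes. The class is thus a range cut from a score and not a cell type called by the authors' annotation.

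The study asked whether the cerebral vasculature changes its transcripts in mouse models of brain disease. WT mice were C57BL/6J, and TgApp ArcSwe mice carry a human APP transgene with the Arctic and Swedish mutations and develop plaques and cerebral amyloid angiopathy. All 6 mice, 3 of each genotype, were male, 12 months old and untreated. The cerebrum of 1 hemisphere was digested to microvascular fragments, which were captured on CD31-coated beads, so that the sampling favours vessels that stay in fragments. The promoter of the transgene is not given in the sources used here, and human APP was not counted as a gene of its own. The mice are named WT 1 to WT 3 and ArcSwe 1 to ArcSwe 3, after the numbers in the labels.

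Large arteries reach the brain in the pia mater and give rise to penetrating arterioles, from which the capillary bed branches. Endothelium of large arteries faces pulsatile flow on an elastic wall, and it is known for elastic matrix genes, Notch signalling, gap junction proteins and vasodilator enzymes. The dense set of transporters of the blood-brain barrier is best known from capillary and venous endothelium.

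The members numbered 544, 420 and 643 cells in WT 1, 2 and 3, and 696, 254 and 966 cells in ArcSwe 1, 2 and 3. Their UMIs summed to between 1926367 in ArcSwe 2 and 5182789 in ArcSwe 3, out of 26436229 to 59161203 UMIs in a whole library. Members were deeper than other endothelial cells in every mouse, with median UMIs per cell of 4442.5 to 6849 against 2768.5 to 5423.5. Levels are given as CPM, the UMIs of a gene per 1000000 UMIs of the class in a mouse. ArcSwe 2 had the fewest cells, so its values carry the largest counting error.

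Of the members, 23.8% held UMIs of 1 of the 4 genes, 45.3% of 2, 13.1% of 3 and 17.9% of all 4. Gkn3 was the sole gate gene in 13.9% of members and Mgp in 9.74%, whereas Fbln5 stood alone in 0.142% and Cytl1 in none of the 3523 cells. Membership therefore rested on Gkn3 and Mgp, with the other pair of genes seen beside them. Libraries shared 285 barcodes summed over the 15 pairs of libraries, of which 62 were endothelial in both and 1 was a member in both.

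The 4 gate genes, Gkn3, Cytl1, Fbln5 and Mgp, are described here in each mouse with no test, because they chose the cells. Gkn3 (chr6:87383256-87388935, minus strand, GRCm38), a gastrokine family gene known as an arterial marker in mouse brain, stood at 1487, 1196 and 1593 CPM in WT 1, 2 and 3. It stood at 1237, 1661 and 1313 CPM in ArcSwe 1, 2 and 3, against 13.6 to 23.1 CPM in other endothelial cells. The genotypes overlapped, with WT 2 lowest and ArcSwe 2 highest.

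Mgp (chr6:136872435-136875823, minus strand), which encodes matrix Gla protein, an inhibitor of calcification in arterial walls, stood at 2706, 1705 and 2811 CPM in WT and at 3027, 2594 and 3082 CPM in ArcSwe. Fbln5 (chr12:101746565-101819055, minus strand), whose product fibulin 5 takes part in elastic fibre assembly, stood at 345, 152 and 279 CPM in WT and at 401, 296 and 327 CPM in ArcSwe. Cytl1 (chr5:37735519-37739820, plus strand), a cytokine-like secreted protein, stood at 241, 107 and 205 CPM in WT and at 243, 199 and 245 CPM in ArcSwe. WT 2 was the lowest mouse for all 4 gate genes, and the genotypes overlapped for each of them. Between mice of the same number, Mgp, Fbln5 and Cytl1 were higher in ArcSwe each time, and Gkn3 only in ArcSwe 2. The number has no meaning given in the sources used here, and these genes chose the cells, so no genotype effect is read from them.

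Efna5 and Clu, which were named as markers together with the gate genes but did not choose cells, were also far higher in members. Clu (chr14:65968483-65981547, plus strand), which encodes the secreted chaperone clusterin, stood at 633, 490 and 538 CPM in WT and at 602, 511 and 562 CPM in ArcSwe. In other endothelial cells Clu stood at 8.70 to 23.5 CPM, and the log2 fold change was 4.97 (SE 0.0998, n = 6 mice). Efna5 (chr17:62604184-62881317, minus strand), an ephrin ligand of Eph receptors, stood at 101, 61.9 and 175 CPM in WT and at 111, 111 and 161 CPM in ArcSwe, against 0.830 to 2.04 CPM in other endothelial cells. Its log2 fold change was 6.23 (SE 0.0945), and no mouse came near the range of the other cells.

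**Figure D1:**
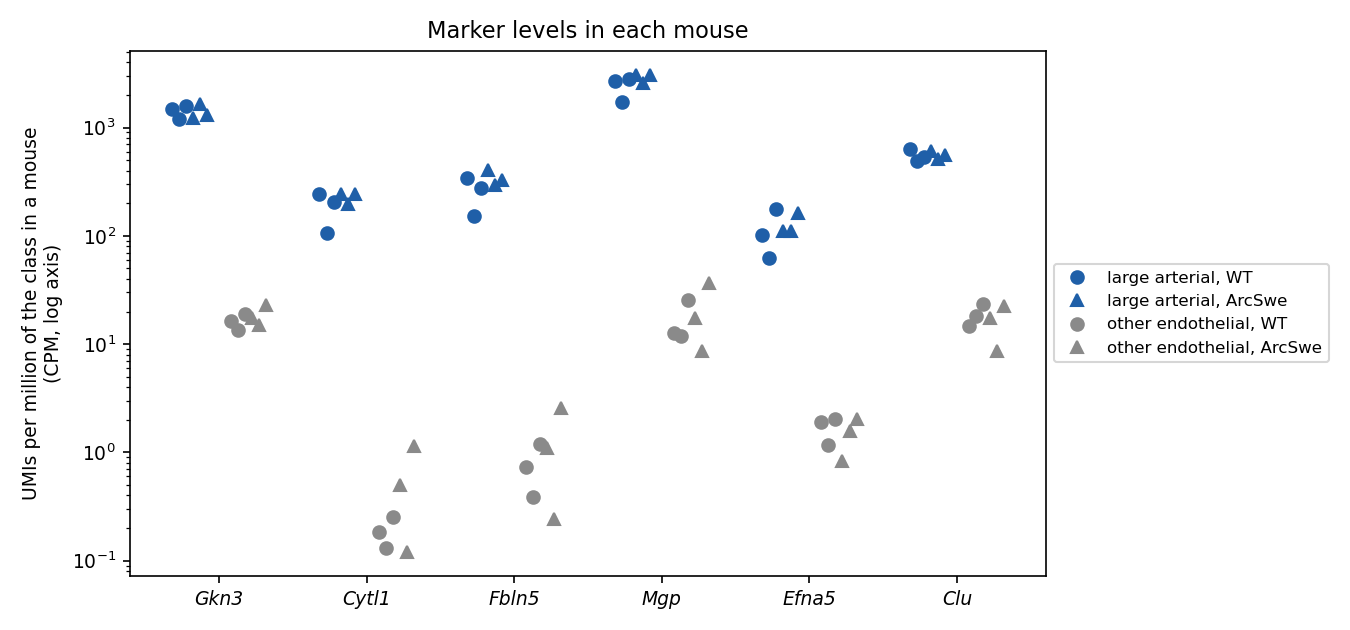
CPM (log axis) of the 4 gate genes and of Efna5 and Clu in each of 3 WT (circles) and 3 ArcSwe mice (triangles), in large arterial (blue) and other endothelial cells (grey). The 2 classes are separate for every gene, with Clu at 490 to 633 CPM in members, and the genotypes overlap.

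Each pair of gate genes was also read in cells chosen by the other pair. In the 3118 endothelial cells with at least 2 UMIs over Gkn3 and Cytl1, Mgp stood at 2751 ± 569 CPM (SD, n = 6 mice), against 59.8 ± 36.4 CPM in the 18534 cells with none. Fbln5 stood at 322 ± 96.0 CPM against 3.85 ± 2.59 CPM in the same cells. In the 3001 cells with at least 2 UMIs over Mgp and Fbln5, Gkn3 stood at 1377 ± 241 CPM against 59.4 ± 12.4 CPM, and Cytl1 at 238 ± 60.1 CPM against 0.413 ± 0.381 CPM. Of the cells chosen by Gkn3 and Cytl1, 69.6 to 79.1% in each mouse held an Mgp UMI. Clu was high under both choices, at 566 ± 63.2 CPM and 636 ± 68.7 CPM.

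Promoters of a few members are printed because the class is defined and led by these genes, and flow-responsive KLF factors bind CACCC boxes. They are the 250 bases before the start site from RefSeq (GRCm38.p6), 5′ to 3′ on the strand of the gene, with CACCC or its reverse complement GGGTG in capitals. Of 8 genes looked up, 5 were found, with 6 promoters: those of Gkn3, Cytl1, Efna5 and Gja5, and a pair of Fbln5.
Gkn3 promoter (chr6:87388936-87389185, minus strand): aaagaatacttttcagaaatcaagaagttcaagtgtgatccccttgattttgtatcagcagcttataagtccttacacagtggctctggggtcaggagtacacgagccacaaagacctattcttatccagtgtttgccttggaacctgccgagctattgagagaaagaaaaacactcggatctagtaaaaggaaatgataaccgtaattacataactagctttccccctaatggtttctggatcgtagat
Cytl1 promoter (chr5:37735269-37735518, plus strand): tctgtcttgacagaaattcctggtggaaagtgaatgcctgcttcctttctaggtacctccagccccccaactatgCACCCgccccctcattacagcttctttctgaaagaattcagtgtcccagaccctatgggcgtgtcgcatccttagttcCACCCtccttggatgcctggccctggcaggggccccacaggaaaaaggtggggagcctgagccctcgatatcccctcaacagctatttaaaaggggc
Gja5 promoter (chr3:97032152-97032401, plus strand): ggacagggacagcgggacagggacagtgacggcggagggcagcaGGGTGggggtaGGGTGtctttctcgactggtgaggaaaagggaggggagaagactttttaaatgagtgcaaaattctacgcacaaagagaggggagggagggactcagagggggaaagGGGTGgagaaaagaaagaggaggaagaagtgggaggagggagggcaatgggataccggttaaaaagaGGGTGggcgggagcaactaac
The letters occur 0 times in the Gkn3 window, 2 times in that of Cytl1, 4 times in that of Gja5 and 3 times in that of Efna5. They occur in 52.0% of all 32851 RefSeq promoters of this length on either strand, so the matches describe these windows and nothing more. TGGGAA or its reverse complement TTCCCA, a core read by the Notch effector RBPJ, occurred 1 time in these 6 windows, in 1 of those of Fbln5, and in 21.6% of all promoters.

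Membership was graded. Of all endothelial cells, 16701 had no UMI of the gate genes, 2044 had 1 and 618 had 2, whereas 389 had 3, 689 had 4 to 6, 631 had 7 to 12 and 1814 had 13 or more. Cells just inside the limit resembled those just outside it: at 3 UMIs Clu stood at 116 ± 42.8 CPM (SD, n = 6 mice) and Efna5 at 10.8 ± 13.8 CPM, and at 2 UMIs they stood at 93.1 ± 27.7 and 5.37 ± 3.14 CPM. The cells with 13 or more gate UMIs, 51.5% of members, stood well apart, with Clu at 825 ± 95.6 CPM. Their share of members was 52.1 ± 3.50% in WT and 52.9 ± 6.41% in ArcSwe (SD, n = 3 mice each). Cells with more gate UMIs were also deeper, with a median of 7101 UMIs at 13 or more gate UMIs against 4849 at 3.

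Eln, which encodes elastin, stood at 71.7 ± 36.2 CPM at 3 gate UMIs, 101 ± 22.4 CPM at 4 to 6, 116 ± 14.9 CPM at 7 to 12 and 590 ± 166 CPM at 13 or more. Gja5, which encodes an arterial gap junction connexin, stood at 3.95 ± 3.85 CPM at 3 gate UMIs and at 43.8 ± 5.75 CPM at 13 or more. Bmx, an arterial tyrosine kinase, was already at 147 ± 44.2 CPM at 3 gate UMIs and stood at 422 ± 53.9 CPM at 13 or more. Eln, Gja5 and Efna5 transcripts were thus concentrated in the cells with most gate UMIs, while Bmx extended down the range.

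Barrier genes ran the other way along the same range. Tfrc, the transferrin receptor, stood at 367 ± 77.6 CPM in cells with no gate UMI, 162 ± 50.0 CPM at 3 and 51.1 ± 5.77 CPM at 13 or more. Mfsd2a, a lysophospholipid transporter, stood at 233 ± 30.4, 211 ± 71.6 and 70.1 ± 24.4 CPM in the same cells, so that it was low mainly at the end of the range. Klf4, a flow-responsive transcription factor, stayed between 1687 ± 337 CPM at 3 gate UMIs and 2270.3 ± 582 CPM at 13 or more. All of these genes vary with the gate genes in the same cells, and the values are a description.

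**Figure D2:**
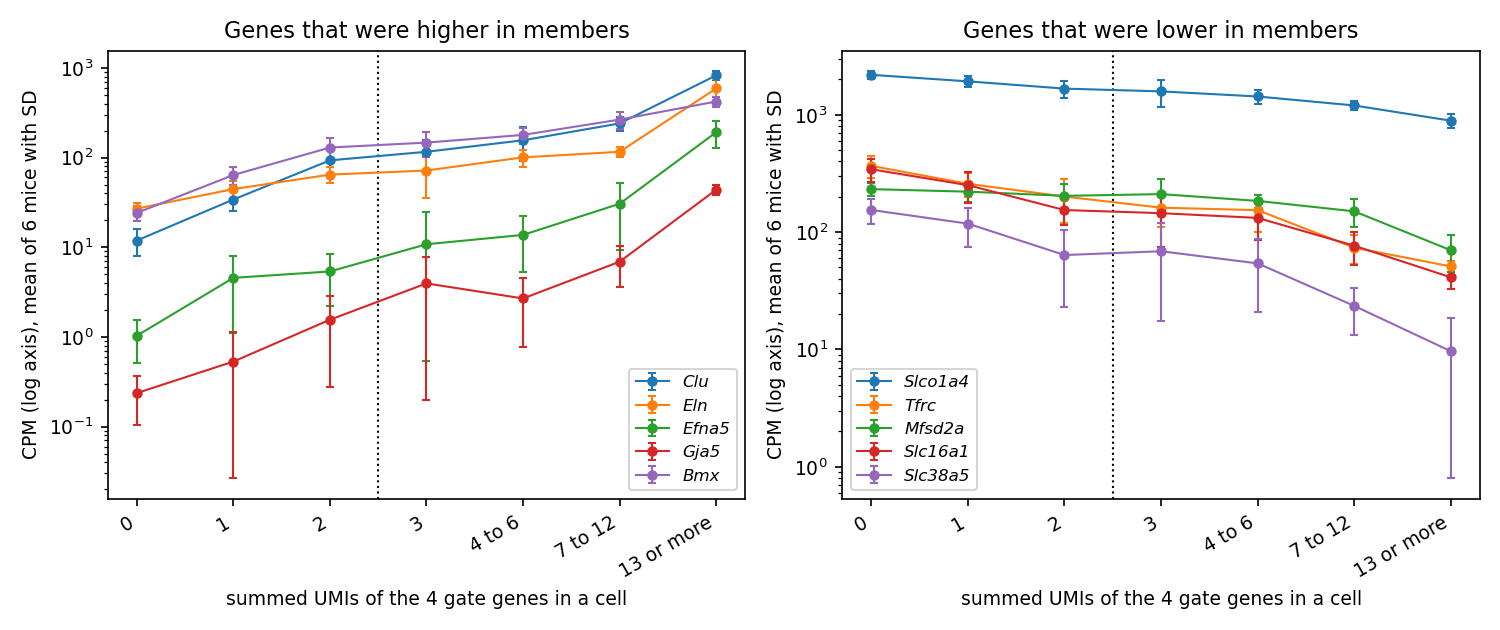
CPM (log axis) by the summed UMIs of the 4 gate genes in a cell, as the mean of 6 mice with the SD, where a lower bar that would reach 0 is shortened to 0.95 of the mean. Members lie right of the dotted line, where Clu climbs from 116 to 825 CPM and Tfrc goes from 162 to 51.1 CPM.

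To describe what the members share beyond the gate genes, their counts were summed in each mouse and set against those of the 19363 other endothelial cells of the same mouse. Of 11963 genes compared, 24.3% were higher and 24.6% lower by the call rule (edgeR's quasi-likelihood fit with the mouse as a block, adjusted p under 0.05). Because the classes were made from expression in these same cells, genes that vary with the gate genes pass by construction, so the counts describe the members and no p is printed for them. The sizes were uneven: 116 called genes were higher by more than 3 on the log2 scale and 14 were lower by as much. The median log2 fold change of all genes was -0.02.

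Among genes with a mean of at least 20 CPM in members, the highest log2 fold changes were those of a transcription factor, a connexin, the ephrin Efna5 and a potassium channel. Gata6, an arterial and smooth muscle transcription factor, came first, at 6.85 (SE 0.204). It stood at 30.9, 12.6 and 22.6 CPM in WT members and at 33.5, 32.7 and 30.7 CPM in ArcSwe members, against 0 to 0.383 CPM in other endothelial cells. Gja5 stood at 26.5, 19.8 and 29.8 CPM in WT and 26.2, 34.8 and 28.6 CPM in ArcSwe, against 0.221 to 0.383 CPM (log2 fold change 6.35, SE 0.165). Members and other cells did not overlap for either gene.

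Kcnn4, a calcium-activated potassium channel of endothelial hyperpolarisation, stood at 14.2 to 22.8 CPM in members and 0.121 to 0.498 CPM in other cells. Nos1, which encodes neuronal nitric oxide synthase, was even over the mice, at 148, 132, 162, 144, 146 and 130 CPM in members against 3.74 to 5.71 CPM (log2 fold change 4.87, SE 0.0664). Igfbp4, an IGF-binding protein, stood at 135 ± 28.3 CPM against 3.12 ± 1.23 CPM, and Bgn, the matrix proteoglycan biglycan, at 147 ± 55.2 CPM against 3.81 ± 2.15 CPM. Scara3, Fblim1, Susd4 and the Wnt antagonist Dkk2 completed the 12 highest of these genes, with log2 fold changes of 5.32, 5.31, 4.87 and 4.82.

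Among the 8 lowest was Car4, a carbonic anhydrase of the capillary surface, at 43.2, 38.7 and 42.3 CPM in WT members and 46.8, 43.1 and 83.0 CPM in ArcSwe members. Other endothelial cells held 525 to 664 CPM of Car4, and the log2 fold change was -3.55 (SE 0.0960). Cyp2e1, a cytochrome P450, had the lowest log2 fold change, at -3.69, with 1.09 to 8.88 CPM in members and 28.2 to 57.6 CPM in other cells. Nos2, the inducible nitric oxide synthase, stood at 1.56 to 2.86 CPM against 20 to 28.6 CPM. Nos1 and Nos2, a pair of enzymes that make the same messenger, thus lay at opposite ends of the comparison. Sdk1, Unc13c, Acsl6, Gm20631 and Flrt2 were the remaining 5, at log2 fold changes between -3.59 and -3.01, and the mice did not overlap for any of the 20 genes.

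Elastic and arterial matrix genes were mostly higher: of 26 listed genes 23 were compared, of which 16 were higher and 4 lower, with a median log2 fold change of 1.31. Eln stood at 403, 211 and 347 CPM in WT members and 518, 410 and 437 CPM in ArcSwe members, against 22.8 to 36.0 CPM in other cells (log2 fold change 3.65, SE 0.0760). Fbn1, the microfibril protein fibrillin 1, stood at 36.4 to 59.2 CPM against 1.54 to 2.27 CPM, and Lox, which crosslinks elastin and collagen, at 8.93 to 25.9 CPM against 0 to 1.41 CPM. Lox, Bgn, Fbn1 and Col18a1, a basement membrane collagen, were the 4 farthest from 0, at 5.31, 5.31, 4.73 and 3.71.

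Some basement membrane genes of the list were level or lower. Col4a1, a chain of type IV collagen, stood at 295 to 409 CPM in members and 301 to 392 CPM in other cells and did not pass. Nid2, the basement membrane linker nidogen 2, was lower, at 13.1 ± 1.96 against 31.9 ± 5.23 CPM (log2 fold change -1.26), and Hspg2, which encodes perlecan, was lower by a log2 fold change of -0.24. Col4a1, Nid2 and Hspg2 were chosen for mention after their values were seen, and Col18a1, also of the basement membrane, was higher.

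Of 26 genes of Notch signalling and arterial identity, 20 were higher, 4 lower and 2 did not pass, with a median of 1.2. Among ligands, Jag1 stood at 142 to 240 CPM against 37.2 to 54.9 CPM and Dll4 at 147 to 211 CPM against 59.1 to 79.4 CPM, at log2 fold changes of 1.98 and 1.38. Notch4, the endothelial receptor, stood at 97.6 to 129 CPM against 46.1 to 58.5 CPM. The target gene Hey2 stood at 10.4 to 20.2 CPM against 1.97 to 3.45 CPM (log2 fold change 2.60), whereas Rbpj, the nuclear effector of the pathway, did not pass.

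Other genes of the arterial list were Gja4, which encodes another gap junction connexin and stood at 68.5 to 100 CPM against 4.71 to 9.68 CPM, and Vegfc, a growth factor, at 452 to 758 CPM against 42.9 to 84.8 CPM. Cxcl12, a chemokine often listed as arterial, was lower in members of every mouse, at 778 to 1593 CPM against 1679 to 2994 CPM (log2 fold change -1.04). Nrp1, a co-receptor of VEGF and semaphorins, was also lower, with a log2 fold change of -0.41. A list of ephrins and guidance genes was split, with 9 of 19 higher and 7 lower: Sema3f stood at 27.9 ± 5.60 against 1.49 ± 0.464 CPM, and Sema3c at 307 ± 33.9 against 824 ± 74.8 CPM.

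Vasoactive genes and ion channels were mostly higher, with 14 of 19 compared higher, 3 lower and a median of 0.63. Ptgis, the prostacyclin synthase, stood at 40.0 to 84.8 CPM against 5.19 to 9.68 CPM, and Ace, angiotensin-converting enzyme, at 65.5 to 103 CPM against 9.87 to 13.8 CPM. Edn1, which encodes the vasoconstrictor endothelin 1, stood at 358 to 561 CPM against 137 to 231 CPM (log2 fold change 1.2). Nos3, the endothelial nitric oxide synthase, differed little, at 316 to 323 CPM against 240 to 289 CPM (log2 fold change 0.25).

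Of 18 flow response genes, 8 were higher, 3 lower and 7 not past, with a median of 0.13. Klf2, the best known flow-induced factor, stood at 2909 to 4491 CPM against 2911 to 3898 CPM, and was higher in members within 5 of 6 mice (log2 fold change 0.14, SE 0.0367). Klf4 stood at 1148 to 2433 CPM against 1103 to 2270 CPM, higher within 5 of 6 mice (0.12, SE 0.0354). WT 3 was the lowest mouse for both in either class. Kdr, the main VEGF receptor, was lower, at 181 to 259 CPM against 395 to 503 CPM (log2 fold change -1.01).

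Barrier transporters were lower as a group: 20 of 22 were lower, 2 higher, and the median was -1.0. Slc7a5, the large neutral amino acid transporter, stood at 148 to 174 CPM against 533 to 635 CPM (log2 fold change -1.88), and Slc16a1, the monocarboxylate transporter, at 49.5 to 95 CPM against 241 to 425 CPM (-2.22). Tfrc stood at 70.4 to 106 CPM against 278 to 457 CPM (-2.11). The 2 higher genes were Slc2a1, the glucose transporter, at 1461 to 1790 CPM against 1326 to 1553 CPM (0.16), and the taurine transporter Slc6a6 (0.13).

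Not all barrier features were lower to the same degree. The efflux pump Abcb1a was at 819 to 1119 CPM against 1232 to 1506 CPM (log2 fold change -0.50). Of 15 junction genes compared, 6 were higher and 6 lower, with a median of -0.04, and Ocln, the tight junction protein occludin, differed by -0.19. All 10 capillary markers were lower, with a median of -1.39. This list shares Mfsd2a, Tfrc, Slc16a1, Car4, Slc7a5, Spock2 and Slc22a8 with the barrier list. It also shares Cxcl12 with the Notch and arterial list and Kdr with the flow list, so the lists are not separate readings. General endothelial markers were present in members, as Pecam1 stood at 756 to 825 CPM and Cdh5 at 518 to 656 CPM.

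**Figure D3:**
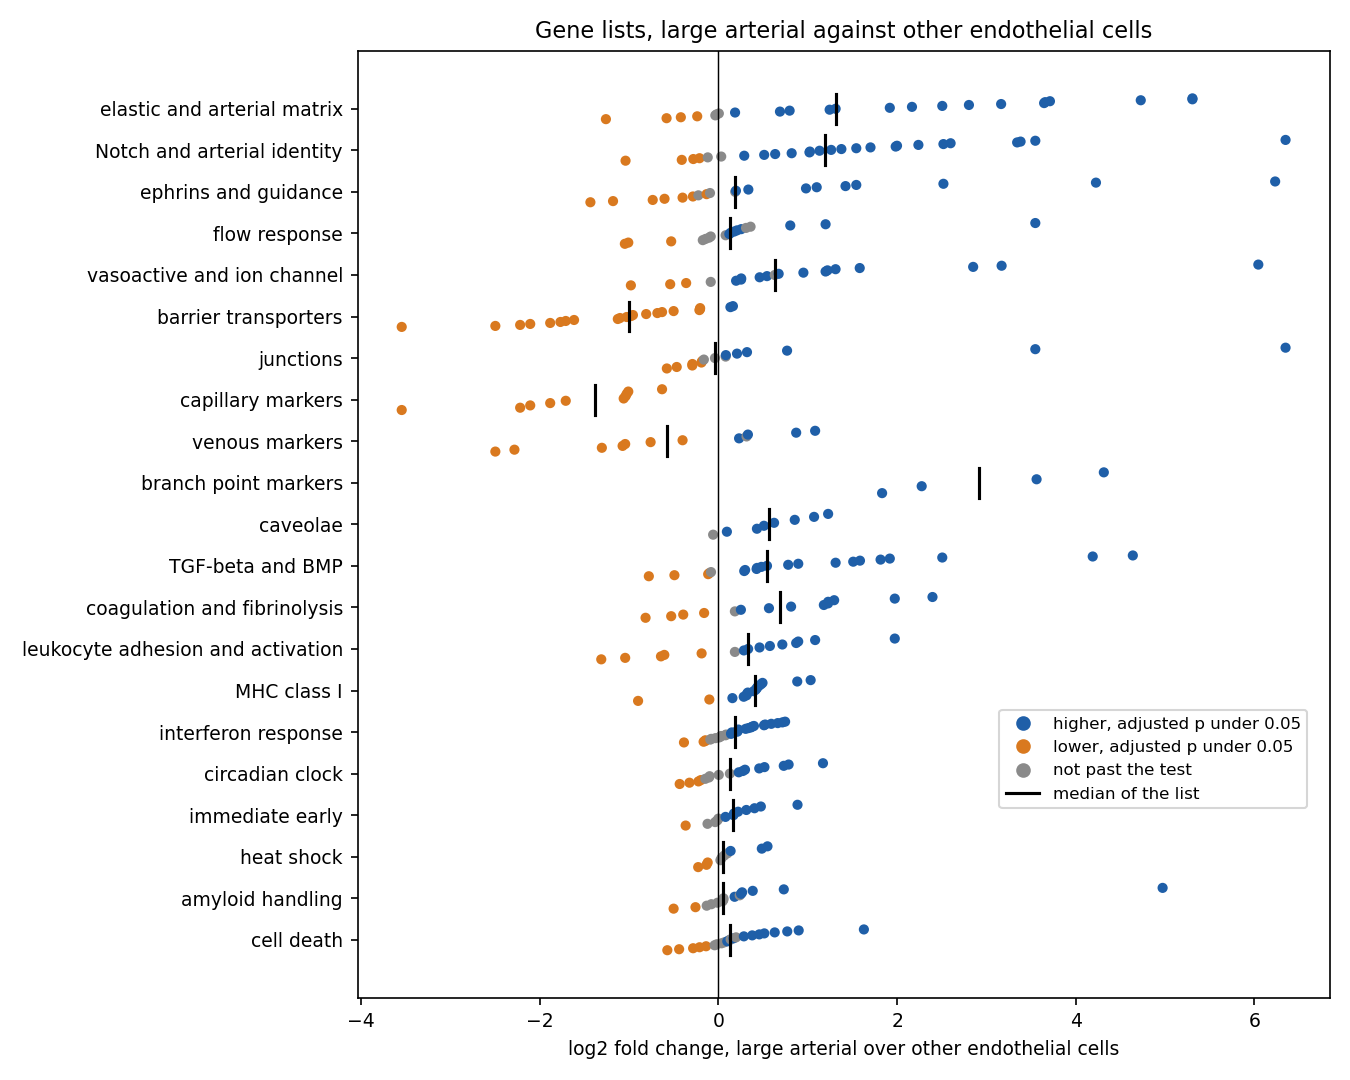
Log2 fold change of each listed gene between large arterial and other endothelial cells (each point a gene, black bars the medians), coloured by the call rule. Elastic matrix, Notch and arterial, and branch point genes lie to the right, with medians of 1.31, 1.2 and 2.92, while barrier and capillary genes lie to the left, with medians of -1.0 and -1.39. Lists share genes, and most capillary genes are also barrier genes.

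All 4 branch point markers, S100a6, Cdh13, Pi16 and Ssu2, which mark a group of endothelial cells at arterial branches, were higher in members. Pi16, a secreted protease inhibitor, stood at 78.0, 70.8 and 67.5 CPM in WT members and 69.7, 43.1 and 67.5 CPM in ArcSwe members, against 1.09 to 4.92 CPM (log2 fold change 4.31, SE 0.10). A UMI of Pi16 or Ssu2 was found in 18.1% of members (13.4 to 21.1% over the mice), 6.29% of arteriolar, 0.193% of venous and 1.27% of all other endothelial cells. The large arterial gate therefore holds cells with the branch point genes, and it did not separate them.

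Signalling genes of the TGF-beta and BMP pathway were mostly higher, with 16 of 21 higher, 4 lower and a median of 0.54. The ligand Bmp4 stood at 46.3, 7.28 and 19.5 CPM in WT members and 51.1, 28.6 and 43.8 CPM in ArcSwe members, against 0.604 to 1.79 CPM. The ligand Bmp6 stood at 13.2 to 43.8 CPM against 0.973 to 2.29 CPM. WT 2 was again the lowest mouse for both. Of 8 caveolar genes 7 were higher and none lower (median 0.57), led by the membrane-remodelling Ehd4 at 1.23.

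Venous markers were divided, with 7 of 12 lower and 4 higher. Slc38a5, an amino acid transporter of venous and capillary endothelium, stood at 6.29 to 50.0 CPM against 86.2 to 180 CPM, and Tmsb10, an actin-binding peptide, at 229 to 455 CPM against 1243 to 2085 CPM. Vcam1, a leukocyte adhesion molecule, was higher in members of each mouse, at 373, 217 and 383 CPM in WT and 528, 355 and 445 CPM in ArcSwe against 111 to 299 CPM (log2 fold change 1.08). Icam1, its partner in leukocyte adhesion, was lower, at 105 to 235 CPM against 203 to 473 CPM (-1.04).

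The remaining lists are read against the 24.3% of all genes called higher and 24.6% called lower. MHC class I genes were higher in 14 of 16 and lower in 2 (median 0.41), interferon response genes higher in 18 of 30 and lower in 4 (0.18), and coagulation genes higher in 9 of 14 and lower in 4 (0.69). Leukocyte adhesion genes were higher in 9 of 15 and lower in 5 (0.33), circadian clock genes higher in 8 of 17 and lower in 4 (0.13), and immediate early genes higher in 8 of 13 and lower in 1 (0.17). Heat shock genes were higher in 3 of 10 and lower in 3 (0.05), cell death genes higher in 11 of 22 and lower in 5 (0.13), and amyloid handling genes higher in 6 of 15 and lower in 2 (0.06). Vwf, which carries clotting factor VIII in blood, stood at 276 to 438 CPM against 222 to 299 CPM, and was higher in members within each of the 6 mice (log2 fold change 0.57, SE 0.0468).

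RNA of mural marker genes was also higher in the members. The 11 smooth muscle markers summed to 2096, 1177 and 1903 CPM in WT members and 1628, 818 and 2026 CPM in ArcSwe members, with Acta2, smooth muscle actin, the most abundant at 422 CPM on average. The sum in other endothelial cells was 424 ± 157 CPM. Venous cells, described below, held Acta2 at 320 ± 165 CPM. The 9 pericyte markers summed to 443 ± 180 CPM against 123 ± 81.1 CPM, led by Rgs5 at 186 CPM. Of the 8 fibroblast markers, Col3a1 stood at 9.48 ± 5.20 CPM in members against 0.280 ± 0.124 CPM in other cells and Igf2 at 8.62 ± 2.94 against 1.54 ± 1.04 CPM, and the highest value of any marker in members of any mouse was that of Col3a1 in ArcSwe 1, at 17.0 CPM. The part of fibroblast RNA in the comparison was not tested. Cells with 2 or more smooth muscle UMIs made up 3.94 to 14.3% of members and 0.676 to 5.91% of other cells.

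The leading genes were as high without such cells. When every cell with a UMI of Acta2, Tagln, Myh11, Rgs5, Vtn, Pdgfrb or Kcnj8 was left out of both classes, the log2 fold change of Clu was 5.01, that of Efna5 6.59, of Eln 3.76, of Gja5 6.26, of Gata6 6.96 and of Bgn 6.46. Of the summed smooth muscle markers, Mylk (3.10) and Sncg (2.38) also stayed higher in members, whereas Myl9 (0.08) and Tpm2 (-0.38) did not pass. The source of the Mylk and Sncg RNA was not tested. Of the matrix list 13 of 21 genes were then higher and 5 lower, and of the barrier list 19 of 22 were lower and 2 higher, against 21.4% of all genes higher and 20.5% lower. Sums of the 5 erythroid genes, which come from blood, were lower in members, at 3575 ± 2363 CPM against 9089 ± 3333 CPM, and their part in the comparisons was not tested.

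The closest class by position in the vessel tree was the 1748 arteriolar cells, which had at least 3 UMIs over Sema3g, Vegfc, Bmx and Hey1 without reaching the large arterial gate. Against them, 14.0% of 10207 genes compared were called higher in members and 13.9% lower, and 88 called genes were higher by more than 3 on the log2 scale while none was lower by as much. Both classes were cut from expression, so these too are descriptions. Gja5 stood at 27.6 ± 4.91 CPM in members, 1.07 ± 0.706 CPM in arteriolar and 0.126 ± 0.199 CPM in venous cells. Gata6 stood at 27.2 ± 8.14 CPM in members and at 0.245 ± 0.397 CPM in arteriolar cells.

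Summed over the class, Eln set members apart from both other classes, at 388 ± 103 CPM against 45.7 ± 9.43 CPM in arteriolar and 40.8 ± 9.14 CPM in venous cells. Members with 3 gate UMIs lay nearer these classes, at 71.7 ± 36.2 CPM, than those with 13 or more, at 590 ± 166 CPM. Clu was graded, at 556 ± 54.4 CPM in members, 72.8 ± 21.9 CPM in arteriolar and 5.86 ± 3.52 CPM in venous cells. Nos1 was graded in the same order, at 144 ± 11.9, 26.7 ± 4.14 and 1.10 ± 0.896 CPM. Car4 ran the opposite way, at 49.5 ± 16.6, 121 ± 25.9 and 824 ± 90.0 CPM.

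Of the arterial matrix list, 13 of 20 genes compared were higher in members than in arteriolar cells and 6 lower, with a median of 0.63. Of the Notch and arterial list, 12 of 20 were higher and 3 lower (median 0.31), with Gja4 at 2.14, Jag1 at 1.52 and Dll4 at 0.61. Of 21 barrier transporters, 20 were lower and none higher (median -0.64), so that members lay below arteriolar cells as well. Leukocyte adhesion genes were higher in 7 of 12 and lower in none (0.57), with Vcam1 at 3.39 and Icam1 at 0.82. Pericyte genes were among the highest in this comparison, with Vtn at 124 ± 55.9 CPM against 4.14 CPM and Higd1b at 27.1 against 1.19 CPM. Smooth muscle genes were higher too, with Acta2 at 422 ± 169 against 44.5 ± 49.8 CPM and the 11 markers summing to 1608 ± 512 against 211 ± 151 CPM. Without cells with any mural UMI, the log2 fold change of Eln was 3.05, of Gata6 6.43 and of Bgn 6.64, close to 3.06, 6.27 and 6.47 with all cells. Of the matrix list 10 of 19 genes were then higher and 6 lower, against 11% and 10.9% of all genes, and its median went from 0.63 to 0.19.

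Against the 2588 venous cells, chosen by at least 3 UMIs over Slc38a5, Nr2f2, Ackr1 and Lcn2, 21.4% of 10803 genes were called higher in members and 20.7% lower. Pi16 had the highest log2 fold change, at 8.34, with 43.1 to 78.0 CPM in members and 0 to 0.634 CPM in venous cells. Dkk2 stood at 44.0 against 0.155 CPM and Fabp4, a fatty acid binding protein, at 30.5 against 0.123 CPM. The lowest were Cyp2e1, at 3.11 against 116 CPM, Sdk1, and the clotting factor F5, at 1.78 against 36.4 CPM. Vcam1 and Icam1 were both lower than in venous cells, at log2 fold changes of -0.66 and -2.42, whereas both were higher than in arteriolar cells.

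**Figure D4:**
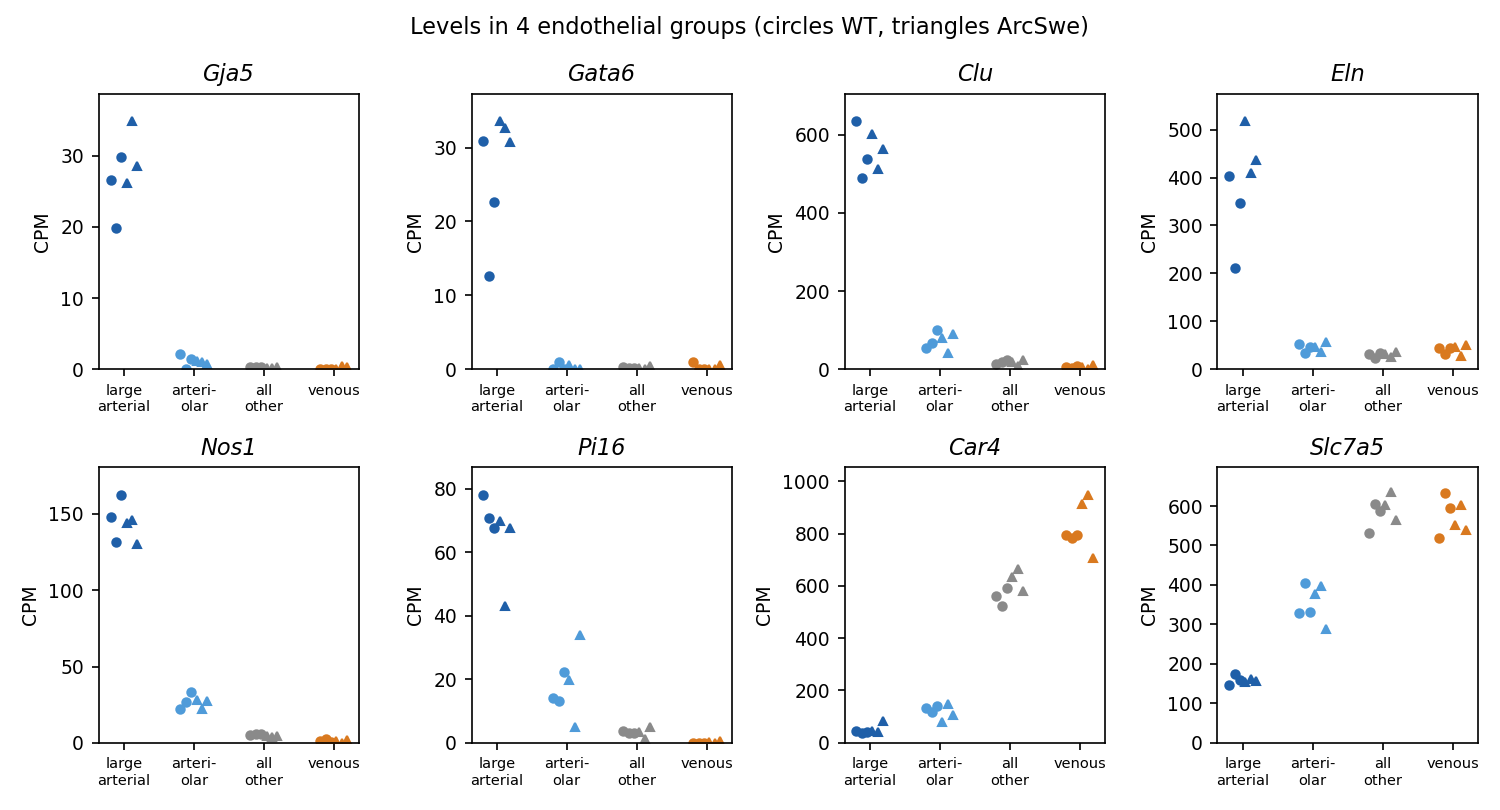
CPM of 8 genes in each mouse (circles WT, triangles ArcSwe) in large arterial, arteriolar, all other and venous endothelial cells, where all other cells include the arteriolar and venous ones. Gja5, Gata6 and Eln are high only in large arterial cells among these groups, Clu, Nos1 and Pi16 step down through arteriolar cells, and Car4 and Slc7a5 run the other way.

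The genotype played no part in choosing the cells, so the comparison of ArcSwe with WT is a test. Members made up 14.1% (95% exact interval 13 to 15.2%), 11.9% (10.8 to 13%) and 17.8% (16.5 to 19.0%) of endothelial cells in WT 1, 2 and 3. In ArcSwe 1, 2 and 3 they made up 14.9% (13.9 to 16%), 16% (14.2 to 17.9%) and 17.2% (16.3 to 18.3%), and the intervals cover counting error only. With the gate on cells thinned to 2000 UMIs each, the shares were 10.3, 7.57 and 13.8% in WT and 11.4, 11 and 15.8% in ArcSwe. With thinning ArcSwe was higher within each replicate number, whose meaning is not given, whereas without it ArcSwe 3 was below WT 3. The genotypes overlapped in both readings, at 14.6 ± 2.97% against 16.1 ± 1.17% (SD, n = 3 mice each) without thinning. The difference of 1.48 percentage points, which was 0.139 without WT 2 and 3.08 without WT 3, 2.06 without ArcSwe 1 and 0.892 without ArcSwe 3, did not pass (two-sided exact permutation test, p = 0.5, where 3 mice against 3 cannot go below 0.1), and the share also moves with how vessel fragments were recovered, which was not tested.

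Within the large arterial cells, 1 of 11168 genes passed between ArcSwe and WT (0.00895%; edgeR's quasi-likelihood test, adjusted p under 0.05), and 390 genes (3.49%) had an unadjusted p under 0.05. With the replicate number as a block 2 genes passed, and with DESeq2 9 passed (0.0806%). The groups of 3 mice did not overlap for 1024 genes (9.17%). The gene that passed was Ptchd1 (chrX:155573455-155623814, minus strand, GRCm38), which encodes a patched-domain membrane protein.

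Ptchd1 had 55, 32 and 78 UMIs in the members of WT 1, 2 and 3, or 15.1, 10.6 and 20.2 CPM. It had 0, 0 and 3 UMIs in ArcSwe 1, 2 and 3, or 0, 0 and 0.579 CPM. The groups did not overlap, and the ratio of summed UMIs, scaled to depth, was 62.7 with a counting interval of 21.1 to 307. The log2 fold change was -5.74 (SE 0.589, edgeR adjusted p = 0.0280, 0.0222 with the replicate block and 1.88e-06 with DESeq2). The call also ended with a gate of 5 or more UMIs (log2 fold change -5.65, adjusted p = 0.0684) and without cells with any mural UMI (-4.90, 0.0832). Leaving out any 1 mouse ended the call, with adjusted p between 0.0601 and 0.474, although every remaining WT mouse stayed above every ArcSwe mouse. The log2 fold change was -8.72 without ArcSwe 3, the mouse that held all 3 ArcSwe UMIs, where the fitted value depends on the prior count and is no bound.

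The Ptchd1 UMIs of WT mice came mostly from cells high in the gate genes. A UMI was found in 76 of 845 WT cells with 13 or more gate UMIs (8.99%), in 26 of 762 members with 3 to 12 (3.41%) and in 20 of 9418 other endothelial cells (0.212%). In ArcSwe mice it was found in 2 of 969 (0.206%), 0 of 947 and 6 of 9945 cells (0.0603%). The 0 of 947 allows a share of cells with a UMI of up to 0.317%, and these counts pool the cells of 3 mice and carry counting error only. Ptchd1 in other endothelial cells stood at 0.247, 0.519 and 1.27 CPM in WT and at 0.0554, 0 and 0.319 CPM in ArcSwe. The difference of the genotype effect between the classes did not pass for Ptchd1 (adjusted p = 0.712).

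Genes next in order of unadjusted p were Dbp, Cxcl10, Irf7, H2-Q6 and Nr1d1, none of which passed in the edgeR test as described above. With no filter on low counts all 5 passed in edgeR, at adjusted p between 9.93e-06 and 0.0103, and with each cell weighted the same Irf7 and H2-Q6 passed, at 0.0452 and 0.0353. Dbp, a clock output factor, stood at 25.7, 18.9 and 20.5 CPM in WT and 43.7, 52.4 and 36.3 CPM in ArcSwe (log2 fold change 1.03, SE 0.18, edgeR adjusted p = 0.692). Nr1d1, the clock repressor REV-ERB alpha, stood at 62.7, 74.1 and 53.5 CPM in WT and 127, 143 and 92.8 CPM in ArcSwe (0.95, adjusted p = 0.874, and 0.0454 with the replicate block). Arntl, which encodes the clock activator BMAL1, lay the other way, at 59.1, 64.5 and 78.1 CPM in WT and 42.7, 37.4 and 52.5 CPM in ArcSwe. It did not pass (log2 fold change -0.55, edgeR adjusted p = 0.9998). None of these 3 clock genes overlapped between the genotypes, where 9.17% of all genes also did not. Dbp and Nr1d1 were listed for their small unadjusted p, and Arntl from earlier results of these data. The hour at which each mouse was taken is not given in the sources used here, so genotype and hour cannot be told apart.

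Cxcl10, an interferon-induced chemokine, stood at 3.56, 4.96 and 5.97 CPM in WT and 17.4, 9.86 and 25.9 CPM in ArcSwe (log2 fold change 1.97, SE 0.34, edgeR adjusted p = 0.692). Irf7, an interferon regulatory factor, stood at 69.2, 65.5 and 61.2 CPM in WT and 104, 91.4 and 102 CPM in ArcSwe (0.64). H2-Q6, an MHC class Ib gene with near-identical neighbours that makes its count uncertain, stood at 95.5, 46.3 and 76.3 CPM in WT and 144, 141 and 162 CPM in ArcSwe (1.07, adjusted p = 0.874). B2m, the light chain of MHC class I, stood at 1018, 882 and 1162 CPM in WT and 1465, 1514 and 1564 CPM in ArcSwe (0.61, adjusted p = 0.874).

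DESeq2 called H2-Q6, B2m, H2-Q7, Cxcl10, Nr1d1, H2-Q4, H2-K1 and Dbp higher beside Ptchd1, where the edgeR test described above did not. With no filter on low counts, edgeR called these genes except B2m (adjusted p = 0.125) and H2-K1 (0.0519), and with each cell weighted the same it called H2-Q6 and H2-Q7 (0.0353 each). Casp4, an inflammatory caspase, stood at 30.1, 29.4 and 26.2 CPM in WT and 57.6, 29.6 and 39.7 CPM in ArcSwe. The groups overlapped, and Casp4 did not pass (log2 fold change 0.64, SE 0.22, edgeR adjusted p = 0.9998, and 0.998 with the replicate block). ArcSwe was higher within each replicate number, but the meaning of that number is not given. App stood at 1708, 1708 and 1579 CPM in WT and 1660, 1795 and 1514 CPM in ArcSwe (log2 fold change 0.02, SE 0.14), with no direction.

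**Figure D5:**
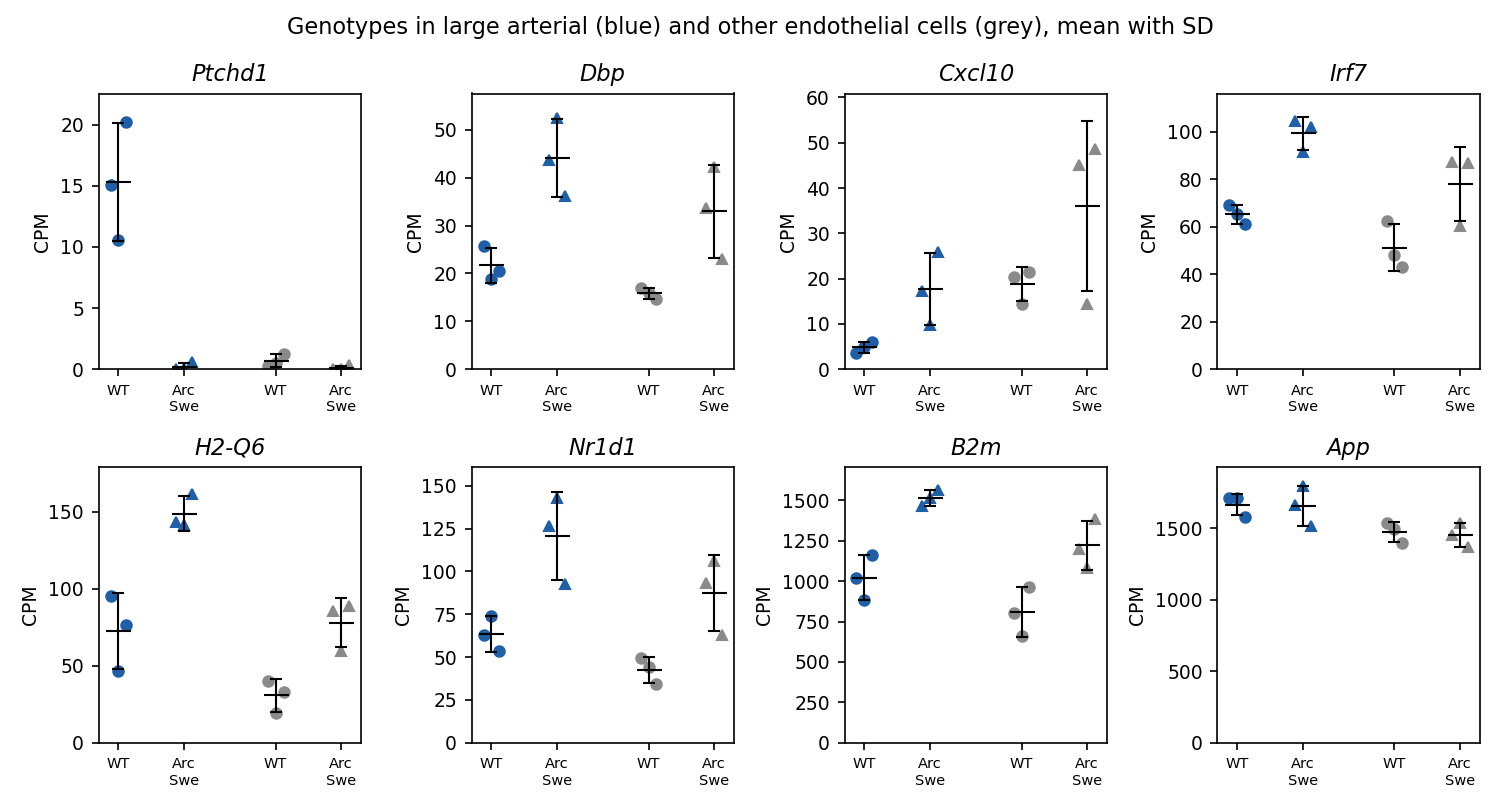
CPM of 8 genes in each WT (circles) and ArcSwe mouse (triangles), in large arterial (blue) and other endothelial cells (grey), with the mean and SD of 3 mice. Ptchd1 is at 10.6 to 20.2 CPM in WT members and at most 0.579 CPM in ArcSwe members, and App overlaps. The 6 genes from Dbp to B2m were picked by small unadjusted p or from earlier results of these data. They do not overlap between genotypes in members, as 9.17% of all genes do not. None of the 6 passed the main edgeR test (adjusted p 0.692 to 0.874).

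By list, no gene passed an adjusted p of 0.05 between genotypes in the main edgeR fit, which had no replicate block. Other settings called more genes, as given above. At an unadjusted p under 0.05, against 2.01% of all genes higher in ArcSwe, 10 of 16 MHC class I genes, 15 of 30 interferon response genes and 8 of 17 clock genes were higher, with 0, 0 and 2 lower. Their median log2 fold changes were 0.38, 0.33 and 0.34, where that of all genes was -0.00. The genotypes did not overlap for 10, 14 and 9 genes of these lists, against 9.17% of all genes. Of the venous markers, 5 of 12 were higher and none lower (median 0.36), and the genotypes did not overlap for 1 of them. Members of a list are read from the same 6 mice and are not independent, and earlier results of these data had pointed to these lists.

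The lists that set the class apart were also read between genotypes. Of the matrix list 1 of 22 genes had an unadjusted p under 0.05, against 3.49% of all genes (median 0.13), of the Notch and arterial list 2 of 26 (0.03), of the barrier list 2 of 22 (0.04) and of the branch point list none of 4 (0.03). Clu differed by a log2 fold change of 0.05 (SE 0.14) and Efna5 by 0.23 (SE 0.29). Eln stood at 403, 211 and 347 CPM in WT and 518, 410 and 437 CPM in ArcSwe, which did not overlap, and did not pass (log2 fold change 0.55, SE 0.21). Leukocyte adhesion genes had 5 of 15 higher at an unadjusted p under 0.05 (median 0.39). Among them Vcam1 stood at 373, 217 and 383 CPM in WT and 528, 355 and 445 CPM in ArcSwe. Its genotypes overlapped. ArcSwe was higher within each replicate number, but nothing in the labels makes mice of the same number a pair.

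Whether the genotype effect differed between large arterial and other endothelial cells was tested directly over 12619 genes. None passed with edgeR (0.0%) and none with DESeq2, while 648 had an unadjusted p under 0.05 in edgeR, and the smallest adjusted p was 0.221. Dbp and B2m differed in the same direction in other cells of the same mice: Dbp stood there at 17.0, 15.9 and 14.7 CPM in WT and 33.6, 42.3 and 23 CPM in ArcSwe, and B2m at 800, 658 and 965 CPM and 1199, 1084 and 1382 CPM. Cxcl10 in other cells overlapped, at 20.4, 14.5 and 21.4 CPM in WT and 45.1, 14.5 and 48.6 CPM in ArcSwe. A p past no threshold does not show that the classes respond alike.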

How the data were processed

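Cells from the cerebrum of 6 male mice were sequenced as 6 droplet libraries, and the authors deposited unnormalised UMI counts for every gene in every barcode, which the submitters' processing notes credit to Cell Ranger 7.0.0 and mm10. The study's methods add Clec7a and human NOTCH3 sequences to that reference. Cells with 500 to 4500 genes and under 10% mitochondrial UMIs were kept, and endothelial and large arterial cells were gated on UMIs. No doublet caller was run, since mural UMIs were followed instead. The members and lists were chosen with earlier results of these data known.

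Counts were summed per mouse and class and fitted with edgeR 4.0.16 in R 4.3.3 (TMM, filterByExpr, quasi-likelihood test, Benjamini-Hochberg adjustment at 0.05). Class comparisons had the mouse as a block, and the genotype comparison had none. Ribosomal, mitochondrial, pseudogene and Rik genes and the 12 gate genes were not tested, nor the gate genes of the arteriolar and venous classes where those entered. Tables were prepared in Python 3.11.15, numpy 2.4.6, scipy 1.17.1 and pandas 2.3.3. DESeq2 1.42.0, other gates, filters and weights, and leaving out each mouse were alternatives.

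Replicate numbers come from the labels. Deviations of same-numbered WT and ArcSwe mice from their group means correlated over genes at 0.129, 0.10 and 0.251, each over 0.1, so the block on the number was run beside the main fit. Where nothing in the labels ties a number to a litter or day, its meaning is not given in the sources used here. The labels name each library by its own mouse.

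Named genes were the 12 highest and 8 lowest log2 fold changes with at least 20 CPM in the higher class and 1 direction in all 6 mice, up to 4 genes a list together with genes whose role names the list, all genes past the genotype test, the 6 with the smallest unadjusted p, and Casp4, H2-Q6, B2m, Dbp, Nr1d1, Arntl and App. A few further genes were named after their values were seen, as contrasts within a list. The fits were tested on simulated counts. Positions are from GENCODE M21 on GRCm38, in which 32158 of 32287 gene IDs were found.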

Additional observations from a re-analysis of the deposited data

How the results depend on the processing

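The count of genes past the threshold between genotypes was 1 in large arterial cells, 9 with DESeq2, 52 with no filter on low counts, 2 with the replicate block and 4 with each cell weighted the same. It was 0 with a gate of 5 or more UMIs and 0 without cells with any mural UMI, and it ranged from 0 to 0 when each mouse was left out in turn. Against other endothelial cells, where 5860 genes were called, 3562 were called with each cell weighted the same and 3614 with no block on the mouse. DESeq2 called 1680 genes against arteriolar and 2983 against venous cells, where edgeR called 2850 and 4548. For the difference of the genotype effect between classes, 65 genes passed with no filter on low counts and 1 without cells with any mural UMI, and the count ranged from 0 to 12 when 1 mouse was left out. It was 2 without WT 1, 12 without WT 3, 1 without ArcSwe 2 and 7 without ArcSwe 3. The cause of these shifts was not tested.

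The genotype log2 fold change of App, 0.02, turned to -0.0104 without cells with 2 smooth muscle UMIs, to -0.0148 with a gate on thinned cells, to -0.00757 without cells with any mural UMI, and ranged from -0.0371 upward to 0.0892 over all alternatives. The 12 highest and 8 lowest genes against other endothelial cells kept their direction and their call under 300 alternative values. Those against arteriolar and venous cells, not all named here, did so under 237 and 240. Acta2, also named against arteriolar cells, did not. Its log2 fold change went from 3.47 to -0.112 without cells with 2 smooth muscle UMIs (edgeR adjusted p = 0.726). The weighting of cells and the filter on any mural UMI were chosen after seeing the data. The 3 mice a genotype and as few as 254 members in a mouse limit the precision of these values, and the smallest change that could be called is not given.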

Other observations

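Transthyretin (Ttr), a choroid plexus transcript, differed widely between libraries within the large arterial cells, at 32.6, 66.2 and 1124 CPM in WT 1, 2 and 3 and 152, 72.2 and 697 CPM in ArcSwe 1, 2 and 3. Erythroid genes in the same cells summed to 6571, 6490 and 1937 CPM in WT and 2997, 1175 and 2281 CPM in ArcSwe. WT 3 and ArcSwe 3 were thus the mice with most Ttr, and they also had the highest share of members with any mural UMI, at 42.0% and 39.2%.

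When WT 3 was left out, Cdh13 and S100a6, both branch point markers, passed for a difference of the genotype effect between large arterial and other endothelial cells, at log2 differences of 0.74 and 0.45 (edgeR adjusted p = 0.00140 and 0.0325). Without WT 1, Vcam1 passed at 1.04 (adjusted p = 9.06e-05). Among alternatives that kept the filter on low counts, Cxcl2, a neutrophil chemokine, passed in 4, at 1.26 to 1.83. Of these, 1 kept all 6 mice and left out the cells with any mural UMI (1.6, edgeR adjusted p = 0.00197). Cdh13, S100a6, Vcam1 and Cxcl2 did not pass with all 6 mice and all members under the filter on low counts. All 4 passed in edgeR with no such filter, at adjusted p between 1.12e-18 and 0.00190.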
